A study of Homo sapiens with 4 samples.

Results

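The chemokine ligand genes are the autosomal protein-coding genes named CCL or CXCL with a number, together with PF4, PF4V1, PPBP, XCL1, XCL2 and CX3CL1. By symbol, 46 of 18973 autosomal protein-coding genes met this rule: 26 of the CC type, 17 of the CXC type, XCL1 and XCL2, and CX3CL1. They lay on 10 chromosomes, 13 of them on chromosome 4 and 17 on chromosome 17. A further 2 copies, CCL3L1 and CCL4L1, are annotated outside the assembled chromosomes and were not analysed here.

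The study sequenced DNA pulled down with CTCF antibodies (ChIP-seq) from MDA-MB-435 melanoma cells, an established human line, in 4 samples of 2 groups. Mitotic cells (2 samples, custom rabbit antibody against pT431 CTCF) spent 24 h in 2 mM thymidine, 3 h without it and then 16 h in 100 ng/mL nocodazole before shake-off. Asynchronous cells (2 samples, rabbit antibody against CTCF) had mixed cell cycle stages and no treatment in the labels. Nothing in the labels says whether the samples of a group came from separate cultures. The values below come from the peak list of asynchronous replicate 1 alone, so mitotic and asynchronous cells were not compared. No value has a replicate check, and all intervals cover counting error only. The library held 19210460 tags and 42462 peaks of 349 bp each, 41313 of them on autosomes. Peak height is given as normalised tags, the tags expected in a library of 10000000. The median autosomal peak held 20.3 normalised tags.

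Chemokines are small secreted proteins that guide migrating leukocytes through G protein-coupled receptors. Most of their genes arose by tandem duplication, and many stay silent until an inflammatory signal induces them through NF-kB or an interferon through STAT and IRF factors. CTCF, a zinc finger protein, stops loop extrusion by cohesin and so marks loop anchors and domain boundaries. Where it binds relative to a cluster of inducible genes is known to bear on which enhancers those genes can contact.

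The only chemokine ligand promoter under a CTCF peak was that of CXCL3, which encodes a neutrophil attractant. RefSeq promoters of GRCh38.p14, 250 bases before to 50 after the annotated start, were at hand for 33 of the 46 genes. A peak overlapped 1 of these 33 (3.03%), against 17.4% of 15101 autosomal protein-coding genes. The CXCL3 promoter is shown for that overlap, with the 99 bases under the peak in capitals.
CXCL3 (chr4:74038640-74038939, minus strand, 5′ to 3′): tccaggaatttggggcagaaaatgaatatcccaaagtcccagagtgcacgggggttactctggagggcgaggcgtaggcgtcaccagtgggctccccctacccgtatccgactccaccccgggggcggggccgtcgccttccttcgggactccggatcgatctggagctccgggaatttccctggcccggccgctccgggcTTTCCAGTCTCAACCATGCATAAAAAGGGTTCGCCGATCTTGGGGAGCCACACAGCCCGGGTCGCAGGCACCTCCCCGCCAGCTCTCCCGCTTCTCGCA
The peak (chr4:74038390-74038738) covered the start and had its centre 0.125 kb inside the gene, so only its upstream edge falls in this window. A CTCF core motif, CCA then AG then GGC with 2 free bases between each, searched on both strands, was not found in these 300 bases. In the other members with a promoter it occurred once, in CCL18, whose promoter lay under no peak. The share was 3.03% of the 33 members and 3.38% of all 15101 genes. Over all genes the motif was in 7.97% of those with a promoter under a peak and 2.41% of the others. Each gene was counted once over all its promoters, so its motif and its peak need not lie in the same promoter.

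Sequence features that the choice of genes did not use set these promoters beside the rest. Each gene entered with the highest value over its promoters. Members had a median GC content of 51% and 4 CpG dinucleotides, against 64.7% and 25 over all 15101 genes. The 2623 genes with a promoter under a peak had a median GC content of 69.0%, and the 12478 others 63.3%. CXCL3 was at 64.3% with 24 CpG, close to its neighbours CXCL1 (66.3%, 22 CpG) and CXCL2 (65.0%, 22 CpG), neither of which had a peak at its promoter. The highest GC content, 77.0%, was that of CXCL12, the stromal ligand of CXCR4. The TATA motif TATAAA was in 16 of 33 members (48.5%) and in 12.5% of all genes.

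An NF-kB motif, GGGA and TTCC with 2 free bases between them, searched on both strands, was in the promoters of 8 of 33 members (24.2%) and in 2.14% of all 15101 genes. These stretches are shown because 5 of the 8 genes belong to the 7 neutrophil-attracting genes of chromosome 4, of which only CXCL3 had a peak within 1 kb of either end. Capitals mark the match, and matches on both strands that overlap are joined. All are read 5′ to 3′ on the gene's strand.
CXCL1 (chr4:73869304-73869334, plus strand): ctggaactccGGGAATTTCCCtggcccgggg
CXCL2 (chr4:74099253-74099283, minus strand): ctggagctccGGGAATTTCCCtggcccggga
CXCL3 (chr4:74038748-74038778, minus strand): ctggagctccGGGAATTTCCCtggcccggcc
CXCL5 (chr4:73998748-73998778, minus strand): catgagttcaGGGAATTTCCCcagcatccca
CXCL6 (chr4:73836578-73836608, plus strand): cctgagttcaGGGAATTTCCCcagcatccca
CXCL10 (chr4:76023655-76023684, minus strand): gaggagcagaGGGAAATTCCgtaacttgga
CXCL11 (chr4:76036127-76036156, minus strand): gactcaaagaGGGAAATTCCtgtgccataa
CCL1 (chr17:34363413-34363443, minus strand): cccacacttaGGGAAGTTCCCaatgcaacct
In CXCL1, CXCL2 and CXCL3 the match ended 68, 67 and 68 bases before the annotated start, with nearly the same bases around it. CXCL5 and CXCL6 shared a longest run of 45 bases between their promoters, and CXCL1 and CXCL2 one of 42, against a median of 8 over 697 pairs of member promoters. An interferon response motif, GAAA and GAAA with 2 free bases between them, searched on both strands, was in CXCL9 and CXCL10, 2 of 33 members (6.06%), against 4.17% of all genes. A match describes letters and does not show a factor at the site. Lack of a match to 1 fixed pattern, as in CXCL8 and PPBP for NF-kB, does not show that a site is absent. Promoters that share long runs are not independent, so the shares do not count separate events.

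Few chemokine ligand genes had CTCF at their ends. A peak lay within 1 kb of an annotated end in 5 of 46 genes (10.9%, Clopper-Pearson 95% interval 3.62 to 23.6), against 31.0% of 18973 autosomal protein-coding genes. The 5 were CXCL3, CXCL14, CCL16, CCL18 and CCL17, and each had a peak of its own. When peaks scoring below the median were dropped, it was again 5 of 46 members but 17.1% of all genes, a share inside the members' interval. The CXCL14 peak, with a score of 39, stood at that median itself. Genes of 1 cluster share their surroundings and are not independent, which the interval does not cover, and no test was made. The ligand genes are short, with a median length of 3.09 kb against 24.8 kb over all genes. Among genes of at most 10 kb, a comparison added after the values were seen, 4 of 37 members (10.8%) and 26.3% of 5234 genes had a peak within 1 kb. The part of gene length in the remaining difference was not tested.

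The strongest of the 5 peaks stood by CCL17, a ligand of CCR4 that attracts T helper cells to skin. It held 71.8 normalised tags (exact Poisson 95% interval 60.4 to 84.9) and lay 970 bp beyond the upper-coordinate end of the gene. The CXCL3 peak came next with 55.4 normalised tags (45.2 to 66.7). The peak 195 bp from CCL16, a ligand made in liver, held 25.8 (19.3 to 34.3). The peak 522 bp past the far end of CCL18, a T cell attractant, held 24.7 (18.0 to 32.5), and that 165 bp past the far end of CXCL14, an epithelial chemokine, held 20.3 (14.4 to 27.8). The intervals of CCL16, CCL18 and CXCL14 overlapped one another and lay below those of CCL17 and CXCL3. The median over the 5 was 25.8 normalised tags, against 22.9 over 5500 peaks at the ends of autosomal protein-coding genes. The focus ratio is a fraction that is higher where tags of each strand sit on their own side of the centre. It was 0.849 to 0.878 for these 5, against a median of 0.818 over the 5500 peaks and 0.847 over all autosomal peaks.

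With no control library, the local background, the normalised tags expected from the surrounding 10 kb, was read at the peaks themselves. It ranged from 1.204 to 4.25 at the 5 peaks, against a median of 1.87 at all coding gene ends. CCL17 had the highest of the 5, at 4.25. Values just outside the 1 kb limit were 1.15 kb for CCL1, 1.46 kb for CXCL12 and 1.52 kb for CXCL16, against 0.97 kb for CCL17 just inside it.

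The median distance from a member's nearer end to a peak was 8.52 kb, with quartiles of 2.08 and 26.9 kb, against a median of 3.83 kb over all genes. Over 20 kb from any peak were 15 of 46 members (32.6%), against 17.5% of all genes. The 28 members of the clusters on chromosomes 4 and 17 had a median of 13.2 kb, and the 18 elsewhere one of 3.63 kb. Chromosome 4 and 17 clusters also set the far end of the range. CCL11 was 73.1 kb from a peak, CCL7 69.9 kb, PF4 56.3 kb and CCL2 55.0 kb.

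**Figure D1:**
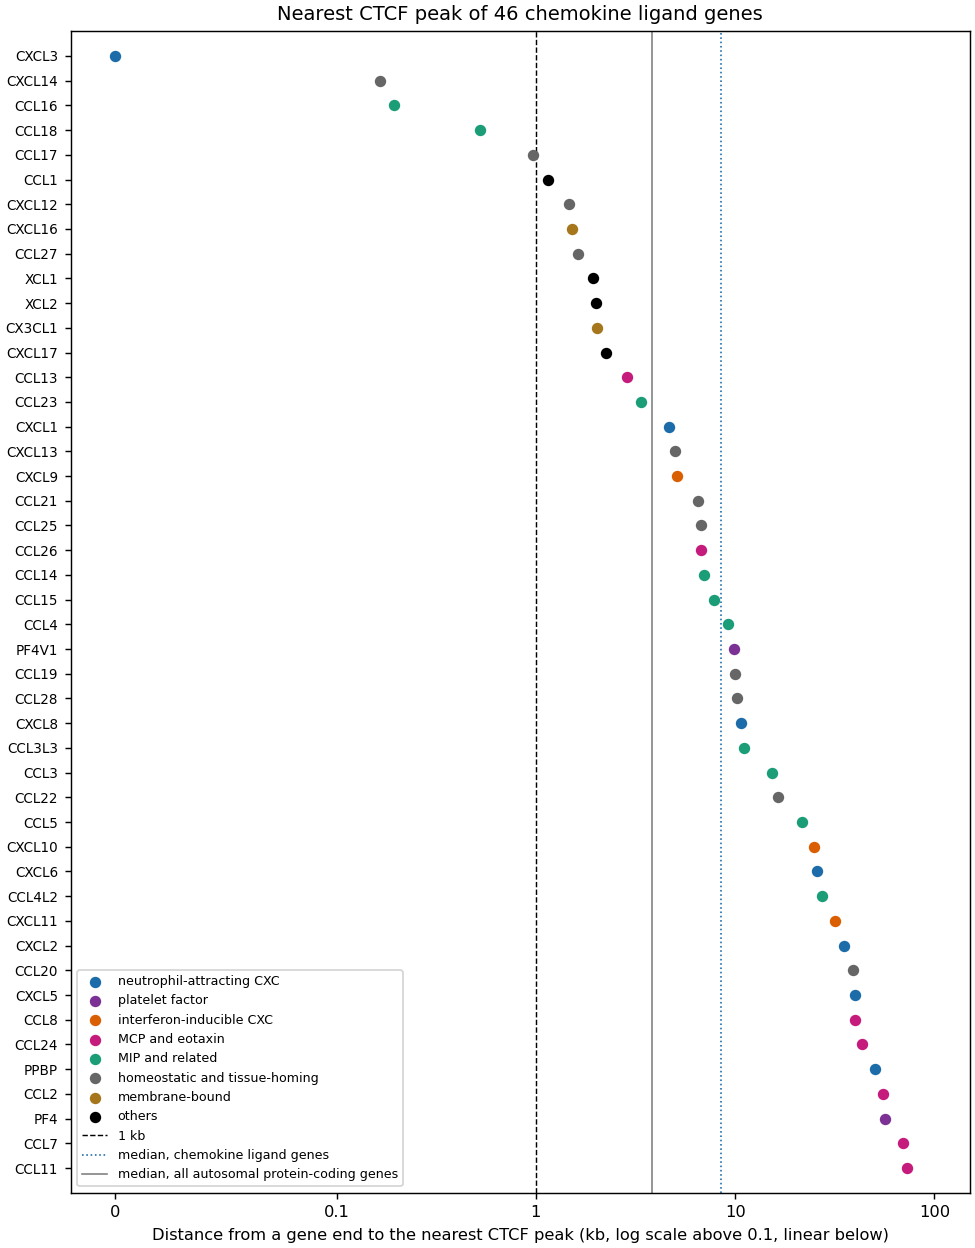
Distance from the nearer gene end to the nearest CTCF peak for each of the 46 chemokine ligand genes, in kb on a log scale above 0.1 and linear below, coloured by role. The points run from 0 kb at CXCL3 to 73.1 kb at CCL11, and 5 genes lie left of the dashed line at 1 kb.

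By role, 1 of 7 neutrophil-attracting genes, 2 of 10 genes of the MIP and related group and 2 of 11 homeostatic and tissue-homing genes had a peak within 1 kb. None did among the 7 MCP and eotaxin genes, the 3 interferon-inducible CXC genes, PF4 and PF4V1, the membrane-bound CXCL16 and CX3CL1, and CCL1, CXCL17, XCL1 and XCL2. Median distances were 43.1 kb for the MCP and eotaxin genes, which draw monocytes and eosinophils, and 25.6 kb for the neutrophil-attracting ones. They were 24.98 kb for the interferon-inducible genes, 8.52 kb for the MIP group and 6.54 kb for the homeostatic group. Groups of so few genes, several from 1 locus, allow a description only.

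With wider windows the clustered members stayed below all genes. Within 5 kb of an end, 7 of 28 clustered members (25%, 10.7 to 44.9) and 9 of 18 others (50.0%, 26.0 to 74.0) had a peak, against 55.2% of all genes. Within 20 kb it was 15 of 28 (53.6%, 33.9 to 72.5) and 16 of 18 (88.9%, 65.3 to 98.6), against 82.5%. The intervals of clustered and other members overlapped at 5 kb and at 20 kb. Over all members, 25 of 46 (54.3%, 39.01 to 69.1) had a peak within 10 kb of an end, against 69.1% of all genes. Every clustered member was at most 8.87 kb long. Of 5234 genes of at most 10 kb, 48.9% had a peak within 5 kb, 61.7% within 10 kb and 75.1% within 20 kb. The 37 members of that length had 32.4% (18.0 to 49.8), 48.6% (31.9 to 65.6) and 62.2% (44.8 to 77.5). These intervals held the shares of all short genes. Of the clustered members' intervals at 5, 10 and 20 kb, only that at 10 kb (24.5 to 62.8) did. At 1 kb their interval (2.27 to 28.2) held the 26.3% of short genes. The same was true at 500 bp (0.877 to 23.5, against 19.7%) and at 50000 bp (63.1 to 93.9, against 89.4%).

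**Figure D2:**
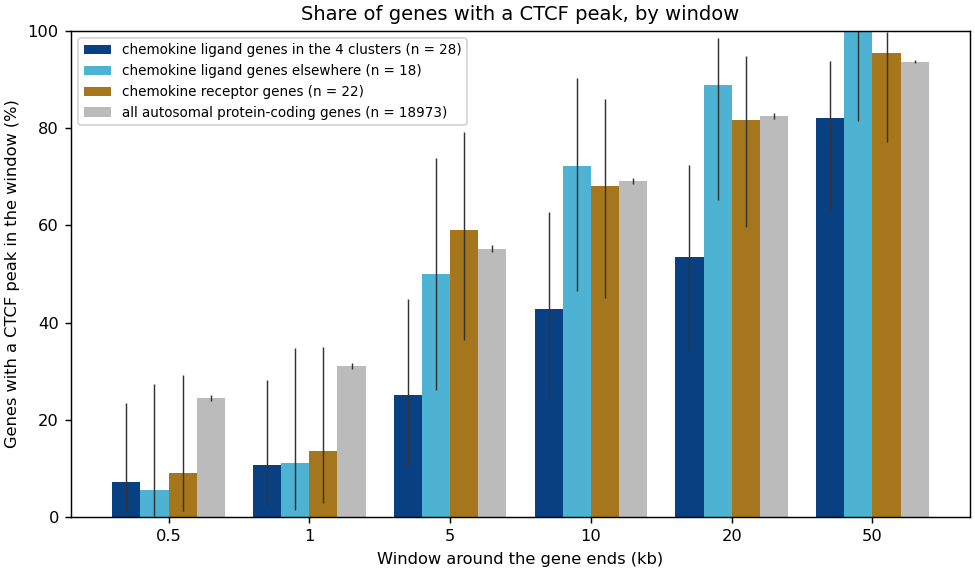
Share of genes with a CTCF peak within a given distance of an end (kb), for chemokine ligand genes in the 4 clusters, those elsewhere, chemokine receptor genes and all autosomal protein-coding genes, with Clopper-Pearson 95% intervals as error bars. At 20 kb the bars stand at 53.6%, 88.9%, 81.8% and 82.5%.

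Runs of at least 3 members with gaps of at most 500 kb formed 4 clusters, which held 28 members in 843 kb. They contained 12 peaks, or 1.42 per 100 kb (0.736 to 2.49), against 1.88 (1.27 to 2.68) in the 200 kb on each side of them and 1.44 over all autosomes. The intervals overlapped. Of 24 gaps between neighbouring members, 18 held no peak. Those 18 ran from 1.72 to 93.0 kb, and the 6 with a peak from 11.5 to 110 kb. Short gaps have little room for a peak, and the share of empty gaps among other neighbouring genes was not computed. The 12 peaks had a median of 25.3 normalised tags and those in the flanks 24.6, against 20.3 over all autosomal peaks. Medians differ by chromosome, at 16.9 on chromosome 4 and 25.8 on chromosome 17. Against these, the CXCL8 to CXCL2 cluster had 19.3 and the CCL5 to CCL4L2 cluster 25.3, while the only peak of CCL2 to CCL1 held 63.2.

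**Figure D3:**
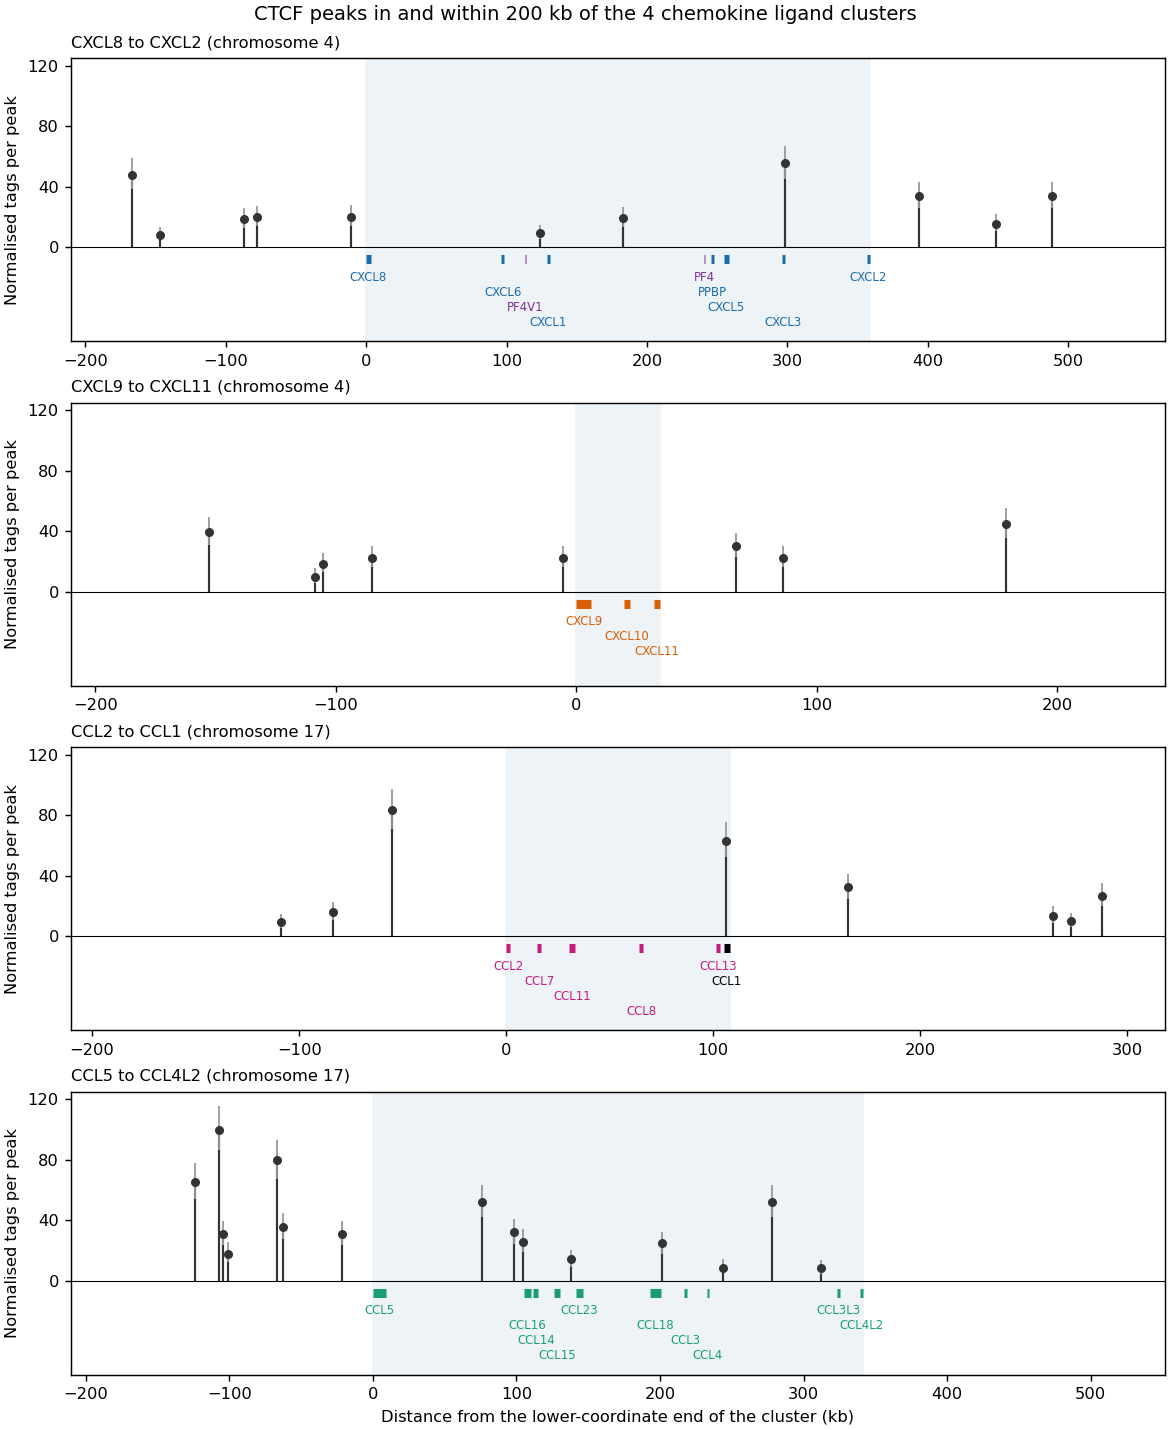
CTCF peaks in and within 200 kb of the 4 clusters, by distance from the cluster's lower-coordinate end (kb), with normalised tags as height, Poisson 95% intervals as error bars, the cluster shaded and member genes drawn below the axis in their role colours. The CXCL9 to CXCL11 cluster holds no peak, and the CCL2 to CCL1 cluster 1, at its upper end.

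The CXCL8 to CXCL2 cluster (chr4:73740569-74099195) encodes the neutrophil attractants and the platelet chemokines. It held 3 peaks in 359 kb, or 0.837 per 100 kb (0.173 to 2.44), against 1.12 on chromosome 4. The peaks were unequal. Besides the 55.4 normalised tags at CXCL3, a peak between PF4V1 and CXCL1 held 9.63 (5.55 to 14.8) and one between CXCL1 and PF4 held 19.3 (13.6 to 26.5). The first lay 4.66 kb from the start of CXCL1 and the other 52.0 kb beyond that gene.

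The stretches between these peaks held 1 to 4 ligand genes each. When peaks scoring below the median were dropped, 1 of the 3 was left, the one at CXCL3, so most of these stretches depend on weak peaks. CXCL8 (interleukin-8), a neutrophil attractant, shared a stretch of 134 kb without a peak with CXCL6, another one, and PF4V1, a close copy of PF4. CXCL1, also a neutrophil attractant, stood alone in one of 58.6 kb. PF4, a heparin-binding platelet protein, shared a stretch of 115 kb with PPBP, the platelet basic protein, with the neutrophil attractant CXCL5, and with CXCL3 at its upper edge. CXCL2, of the same kind, stood alone in 95.5 kb, between the CXCL3 peak and one of 33.8 normalised tags inside MTHFD2L, 35.0 kb away. On the other side, the nearest peak outside the cluster held 20.3 normalised tags (14.4 to 27.8), 10.7 kb from CXCL8. The strongest in that flank, inside RASSF6, held 47.9 (38.6 to 58.7), and in the MTHFD2L flank it was the nearest one.

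The CXCL9 to CXCL11 cluster (chr4:76001275-76036070) encodes the interferon-inducible ligands of CXCR3, which attract activated T cells. Its 34.8 kb held 0 peaks, which allows a density of up to 10.6 per 100 kb, so a density below that of chromosome 4 was not detectable at this length. All 3 genes lay in a single stretch of 71.5 kb, between a peak of 22.4 normalised tags (16.2 to 30.2) and one of 30.2 (22.9 to 39.0). The first was 5.13 kb from CXCL9, in the gap towards SDAD1, and the other lay inside ART3, 31.6 kb from CXCL11. Farther out, the strongest peaks of the flanks were one of 39.8 near PPEF2 and one of 44.8 inside SCARB2. Of the chromosome 4 members, CXCL13, which draws B cells into follicles, lay apart. Its 100 kb held 3 peaks of 14.8, 19.3 and 11.5 normalised tags, all in the part of the gene nearest its far end. A second annotated CXCL13 promoter (chr4:77605570-77605869) lay among these peaks and under none of them.

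The CCL2 to CCL1 cluster (chr17:34255285-34363233) encodes the monocyte chemoattractants, eotaxin and CCL1. Its 108 kb held 1 peak, or 0.926 per 100 kb (0.0235 to 5.16), against 2.18 on chromosome 17. That peak (chr17:34361481-34361829) lay inside CCL1, the ligand of CCR8, at 1.33 kb from its lower-coordinate end, and held 63.2 normalised tags (52.3 to 75.3). The nearest peak on the other side, 55.0 kb below CCL2, held 83.5 (70.9 to 97.2) and was the strongest in that flank. Both peaks stood far over their surroundings, 62.8-fold inside CCL1 and 105-fold below CCL2, against a median of 13.5-fold over autosomal peaks. Their local backgrounds were low, at 1.01 and 0.793 normalised tags, against a median of 1.71 on chromosome 17.

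Between these peaks lay 161 kb without a peak. It held the monocyte attractants CCL2, CCL7, CCL8 and CCL13 and the eosinophil attractant CCL11 (eotaxin), which was 5 of the 6 genes of the cluster. Above CCL1 the nearest peak held 32.5 normalised tags (24.7 to 41.4), 57.0 kb away, and was the strongest in that flank.

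The CCL5 to CCL4L2 cluster (chr17:35871491-36212873) encodes CCL5, CCL3, CCL4 and related leukocyte attractants. It held 8 of the 12 peaks, or 2.34 per 100 kb (1.01 to 4.62), against 2.18 on chromosome 17. The 3 highest lay at 52.1 normalised tags between CCL5 and CCL16, 3.41 kb from LYZL6, at 52.1 between CCL4 and CCL3L3, and at 32.0 in the first gap, 6.63 kb from CCL16. The peaks by CCL16 and CCL18 were given above. A peak 3.36 kb from CCL23 held 14.1 (9.26 to 20.4), one 9.24 kb from CCL4 held 8.59 (5.16 to 14.2), and one 11.1 kb from CCL3L3 held 8.33 (4.76 to 13.5).

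At or above the median score 5 of these 8 peaks were left, so some of the following stretches depend on weak peaks. CCL16 and its neighbours CCL14 and CCL15, both ligands of CCR1, shared 33.0 kb, CCL23, another CCR1 ligand, and CCL18 shared 62.9 kb, and CCL3 and CCL4, the MIP-1 chemokines, shared 42.0 kb. CCL5, a T cell and monocyte attractant, stood alone in 97.3 kb. At the upper end, CCL3L3 and CCL4L2, close copies of CCL3 and CCL4, shared 266 kb without a peak. The flank above CCL4L2 held 0 peaks in 200 kb, which allows up to 1.84 per 100 kb. That stretch also holds several copies of the TBC1D3 gene. Reads from near-identical copies may not be placed uniquely, and their handling is not given in the sources used here. The promoters of CCL3 and CCL3L3 shared a longest run of 70 bases, the longest of any pair. The flank below CCL5 held 7 peaks, of 18.0 to 99.7 normalised tags, the strongest in MMP28 and the nearest 21.6 kb from CCL5, at 30.7.

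**Figure D4:**
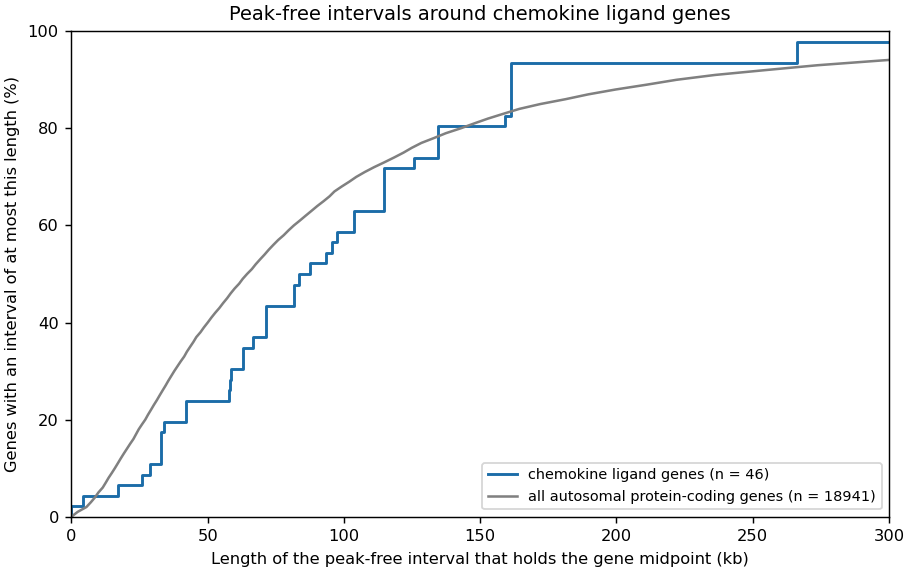
Cumulative share of genes against the length of the peak-free interval that holds the gene's midpoint (kb, shown to 300), for chemokine ligand genes and all autosomal protein-coding genes. The medians are 85.5 kb for the ligand genes and 64.5 kb for all genes, and CXCL12 lies beyond the axis at 696 kb.

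Across all 46 members the peak-free interval around the gene's midpoint had a median of 85.5 kb, against 64.5 kb over the 18941 genes with such an interval. CCL1 entered as 0, since its midpoint lay under its peak. The interval exceeded 100 kb for 19 members (41.3%) and for 31.5% of all genes. Of the 46 members, 28 shared their interval with another member, so these values do not count separate intervals. Of the 19, 5 lay in the interval of 161 kb, 4 in that of 115 kb and 3 in that of 134 kb. Apart from CCL1, the members lay in 27 such intervals. CXCL12 had the longest, 696 kb. It lay at the upper edge, its start 1.46 kb from a peak of 14.8 normalised tags (9.69 to 21.1). A peak centre fell inside 6 members (13.0%), namely CXCL3, CXCL13, CCL28, CX3CL1, CCL1 and CXCL17, against 50.1% of all, mostly longer, genes.

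Outside the 4 clusters, CCL27, CCL19 and CCL21 lay together on chromosome 9. CCL27 attracts T cells to skin, and CCL19 and CCL21 guide cells into lymph nodes through CCR7. Their 48.2 kb held 4 peaks of 35.1, 78.6, 85.1 and 57.8 normalised tags, all above the autosomal median. The nearest peak to CCL27 was 1.63 kb away, that to CCL19 10.0 kb and that to CCL21 6.54 kb. The trio CCL22, CX3CL1 and CCL17 on chromosome 16 held 1 peak in 58.2 kb, of 8.59 normalised tags (5.16 to 14.2), inside CX3CL1. CX3CL1, or fractalkine, is a membrane-bound attractant of monocytes and T cells, and CCL22 is a CCR4 ligand like CCL17. The CCL17 peak of 71.8 lay just beyond this trio.

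Of the remaining single genes, CXCL17, a mucosal chemokine, held 3 peaks of 39.0, 29.4 and 37.2 normalised tags within its 14.7 kb. CCL28, a mucosal ligand of CCR10, held 3 of 59.6, 19.8 and 15.1. CXCL16, a membrane-bound ligand of CXCR6, had a peak of 49.5 (40.01 to 60.5) at 1.52 kb. XCL1 and XCL2, which attract cross-presenting dendritic cells, had weak peaks of 8.59 (5.16 to 14.2) and 9.89 (5.95 to 15.4) at 1.94 and 2.01 kb. CCL25, which draws thymocytes and gut T cells, was 6.70 kb from a peak of 11.5. CCL26 and CCL24, both eotaxins, were 6.74 and 43.1 kb from peaks of 25 and 59.6. CCL20, the ligand of CCR6, was 39.2 kb from a peak of 7.81 (4.37 to 12.9).

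Among the receptors for these ligands, a peak within 1 kb was found for 3 of 22 chemokine receptor genes (13.6%, 2.91 to 34.9), against the 31.0% of all genes. The 3 were CCR1, a receptor of CCL3 and CCL5, with 52.3 normalised tags at 15 bp, CX3CR1, the fractalkine receptor, with 47.1 at 736 bp, and CCR10 with 23.9 at 249 bp. Within 5 kb it was 13 of 22 receptors (59.1%, 36.4 to 79.3), against 16 of 46 ligands (34.8%, 21.4 to 50.2) and 55.2% of all genes, and the intervals of receptors and ligands overlapped. The median receptor distance was 3.67 kb, against 3.83 kb over all genes. CXCR4, the receptor of CXCL12, was 198 kb from a peak, the farthest of the 22.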

How the data were processed

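CTCF ChIP-seq peaks of asynchronous replicate 1 of MDA-MB-435 cells were used. The remaining 3 samples were not analysed here. Per the file headers, HOMER findPeaks was run in factor style on that library alone with no control named, a fragment length of 164 bp, a false discovery rate of 0.001 and at least 4-fold over the surrounding 10000 bp. Per the submitters' processing notes, reads were handled with Bowtie2 and HOMER on hg38. No version of either tool is given in the sources used here. Without a control, extra DNA copies and repeats cannot be told from binding.

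The deposited tag signal is, per the file headers, the tags per peak scaled to 10000000. A fraction, the focus ratio, was deposited too, and the deposited score and fold ratio over the local region are the authors' caller's values, used only to describe peaks within the list. The p-value columns that the authors deposited were not used. Local background is the normalised tags divided by that fold.

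Genes and promoters came from RefSeq tables of GRCh38.p14, matched by symbol and gene ID. Strand was known only through the promoter table, which matched 33 members. Distances run from the peak edge to the nearer gene end. A chromosome's length was taken as its last annotated gene end. Clusters are runs of at least 3 members with gaps of at most 500 kb. Shares have Clopper-Pearson and counts exact Poisson 95% intervals. No test was made, since there is 1 library. The members, lists, motifs and comparisons were chosen with earlier results of these data known. Every member is named, as are all peaks between clustered genes and the nearest and strongest peak of each flank. The distance script was tested on simulated peaks at known distances. The tools were scipy 1.17.1 for intervals, matplotlib 3.10.9 for figures, and pandas 2.3.3 and numpy 2.4.6 under Python 3.11.15.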

Additional observations from a re-analysis of the deposited data

How the results depend on the processing

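No paired analysis was possible because 1 peak list of 1 sample was used and no groups were compared. The 5 members with a peak within 1 kb became 3 within 500 bp, 16 within 5 kb and 25 within 10 kb, against 24.5%, 55.2% and 69.1% of all genes. At or above the median score it was 5 of 46 members, against 17.1% of all genes. At or above the 75th percentile of score 2 remained of 46 (11.9% of all genes), and 1 of 33 at gene starts alone (26.0% of all genes). Receptors numbered 13 within 5 kb and 15 within 10 kb. The 12 cluster peaks became 7 at or above the median score (1 of 3 in the CXCL8 to CXCL2 cluster and 5 of 8 in the CCL5 to CCL4L2 cluster), 4 at or above the 75th percentile, and 106 with gaps of up to 2 Mb, which join each chromosome's clusters. The 30 flank peaks became 15 with 100 kb, 76 with 500 kb and 9 at or above the 75th percentile. The strength of the 5 peaks relative to all coding gene ends was 1.13 by tags and 1.65 by fold over the local region. The median distance was 27.95 kb with peaks at or above the median score, against 11.1 kb over all genes. Peaks of few tags are the least precise.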

Other observations

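Local background was higher at the peaks of the flank below CCL5. Its median was 3.46 normalised tags over 7 peaks, against 1.71 on chromosome 17, and single peaks in MMP28 and by TAF15 reached 6.93 and 5.35. The 10 kb around that MMP28 peak also held a peak of 99.7 normalised tags, and the 10 kb around that TAF15 peak one of 79.9. Tags of such neighbours can enter the local background, and their part in it was not tested. Peaks inside the neighbouring CCL5 to CCL4L2 cluster had a median of 1.33. The part of this background in the heights of those peaks was not tested.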
